A study of Mus musculus with 4 samples.

Results

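The Janus kinases (JAKs) and the signal transducers and activators of transcription (STATs) carry signals from cytokine receptors to the nucleus. The genes described here are Jak1, Jak2, Jak3, Stat2, Stat3, Stat4, Stat5a, Stat5b and Stat6, which were taken by name. All 9 were found among the 55487 gene IDs measured, and all 9 passed the filter on low counts. They were measured by RNA sequencing in sorted mouse colon ILC2s (group 2 innate lymphoid cells), lymphocytes without antigen receptors that secrete type 2 cytokines. The medium of all cells held the alarmins IL-25 and IL-33 along with IL-2 and IL-7. The control group (n = 2) had no FK866, and the treated group (n = 2) had FK866 for 16 h, which inhibits NAMPT, the enzyme that salvages nicotinamide for NAD+ synthesis. Genotype, strain, age, the number of animals and any vehicle given to the controls were not given in the sources used here. Nor is it said that replicates came from separate cultures, so p-values speak only of the spread among these libraries, and that spread may be technical.

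A cytokine receptor has no kinase activity of its own and relies on JAKs bound to its chains. When the cytokine draws the chains together, the JAKs phosphorylate each other and the receptor tails, STAT proteins dock there and are phosphorylated, and STAT dimers enter the nucleus and bind DNA. IL-2 and IL-7 share the common gamma chain, which binds JAK3, while their other signalling chain binds JAK1, and both act mainly through STAT5A and STAT5B. IL-4 and IL-13 act through STAT6, IL-12 through STAT4, cytokines of the IL-6 family through STAT3, and type I interferon through a complex that holds STAT2 and IRF9. IL-33 and IL-25, the alarmins of the culture, signal through adaptors to NF-kB rather than through JAKs.

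Library totals ranged from 27617750 to 37841233 counts, and the members held between 825 and 23612 counts in a library. FK866 replicate 2 stood apart: 22461 gene IDs reached 10 counts there, and 17152 to 18667 did elsewhere. The ILC2 markers were all present, with a summed level of 3145 to 3954 CPM (counts per 1000000 counts of a library, with TMM scaling). The sum hides moves in both directions. Of the 10 markers 1 was called higher with FK866 and 2 lower, Il13 and Arg1. Rora, looked up after its values were seen, was at 337 and 375 CPM in the controls and at 1185 and 1128 CPM with FK866. The markers of 8 other cell types were less abundant: their sums were 20.1 to 21.2 CPM for T cells, 7.79 to 12.4 for ILC1s and NK cells and up to 1.23 for mast cells. The B cell list (61.3 to 122 CPM) was nearly all Ighm and Cd79b, with the other 4 of its 6 genes under 1 CPM in every library. The epithelial list (27.4 to 55.4 CPM) was mostly Epcam, with Krt8 at 0. The ILC3 list (136 to 282 CPM) was mostly Il22, and the stromal and endothelial list (145 to 228 CPM) mostly Pecam1. Of the ILC3 list, 1 of 5 genes was called higher: Il17f, looked up after its values were seen, was at 9.06 and 8.65 CPM in the controls and at 37.6 and 51.8 CPM with FK866. The macrophage and dendritic cell list was at 5.23 and 6.63 CPM in the controls and at 14.7 and 13.2 CPM with FK866, with Cd68 as its most abundant gene. Of its 8 genes, 1 was called higher, and 4 were under 1 CPM in every library. The part of these cells in the results was not tested.

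With FK866, Jak3 fell, Stat5a rose, and the other 7 members had log2 fold changes above 0 that did not pass. Counts were compared with edgeR's quasi-likelihood test, and p-values were adjusted by the Benjamini-Hochberg method over all 19194 genes tested, with a threshold of 0.05. With 1 library left out, 1 of the groups is a single library. Calls and p-values of such fits are not comparable with those from all libraries. Of all genes tested 13.2% were called, 5.31% higher and 7.89% lower, so 1 higher and 1 lower among 9 members is not far from the background. At an unadjusted p under 0.05 stood 6 of the 9, 5 higher and 1 lower. Over all 19194 genes tested, 5370 stood there, 2319 higher and 3051 lower. The libraries of the groups did not overlap for 8 of the 9, a state that 57.7% of all genes shared. The median log2 fold change of the members was 0.48, against 0.025 over all genes tested. Without FK866 replicate 1 the medians were 0.13 for the members and -0.073 over all genes tested in that fit. Fold changes rose with transcript length over 9292 protein-coding genes (Spearman correlation 0.33). Once the trend with length and GC content was taken out, the medians were 0.37 for the members and 0.053 over all genes tested. In bulk RNA, a change in the RNA of each cell and a change in the make-up of the cells cannot be told apart.

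**Figure D1:**
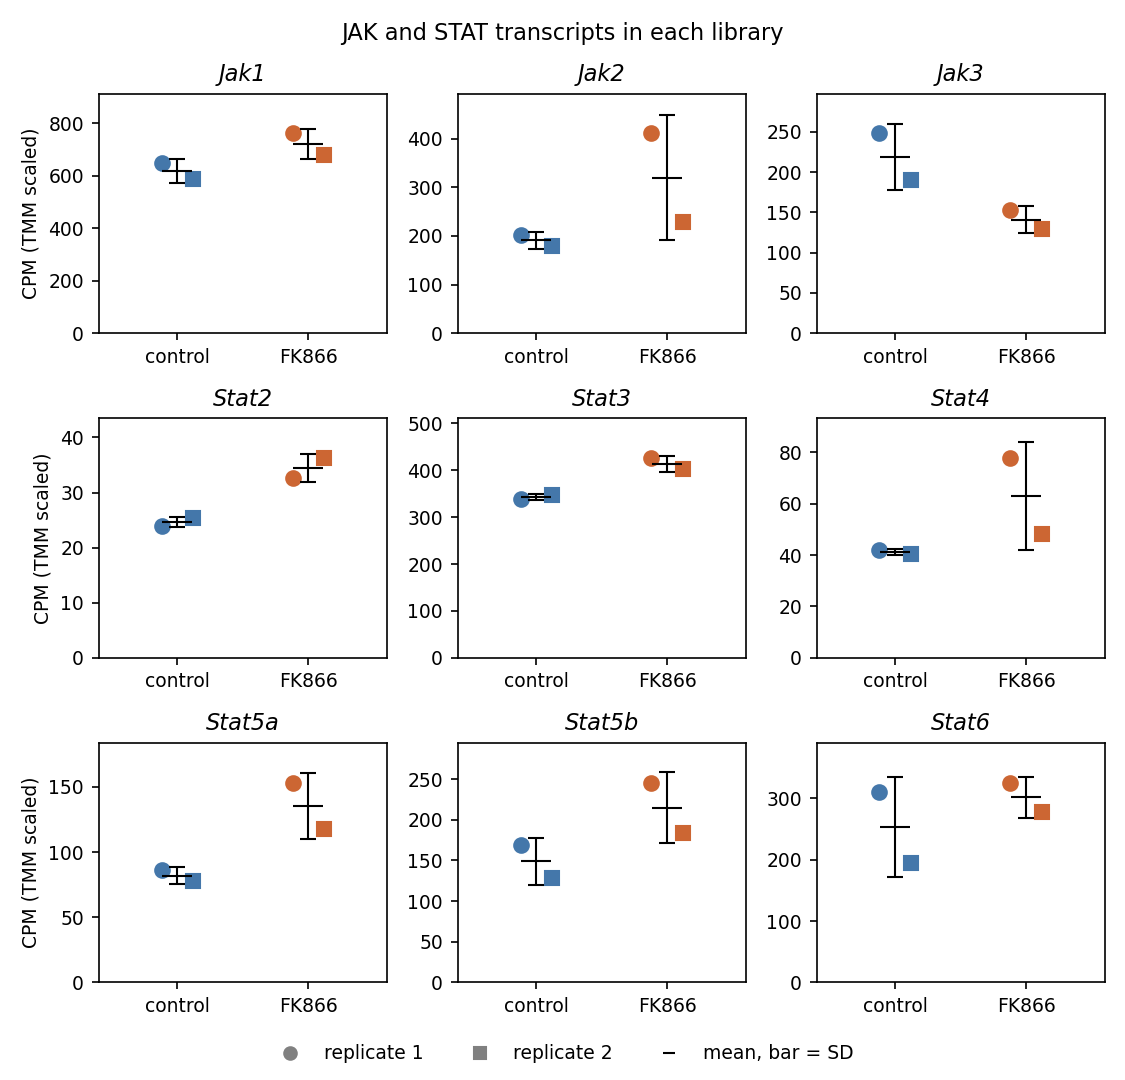
Level of each member in CPM (TMM scaled) in the 4 libraries, on axes that start at 0. Circles and squares are replicates 1 and 2, blue control and orange FK866, and the black line and bar are the mean and SD of 2 libraries. Jak3 is lower in both FK866 libraries, Stat5a is higher in both, and for Jak2 and Stat4 FK866 replicate 1 lies well above FK866 replicate 2.

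Jak3 encodes the kinase bound to the common gamma chain, the subunit that the receptors for IL-2 and IL-7 share. It stood at 248 and 189.8 CPM in control replicates 1 and 2, and at 153 and 129 CPM in FK866 replicates 1 and 2. Both FK866 libraries lay below both controls. The fall from 219 ± 41.0 to 141 ± 16.7 CPM (mean ± SD, n = 2 in each group) was a log2 fold change of -0.64 ± 0.17 (SE), or 1.55-fold lower, with an edgeR adjusted p of 0.0374. The call was lost without FK866 replicate 2 (log2 -0.50, edgeR adjusted p = 0.197) and with the size factors of DESeq2 in place of TMM scaling (-0.61, edgeR adjusted p = 0.0555). The gene (ENSMUSG00000031805) lies on the plus strand at chr8:71676296-71690575 (mm10), and 7.55% of its exon bases also belong to Insl3, a hormone gene on the same strand with 33 to 78 counts per library.

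Jak2 (ENSMUSG00000024789, chr19:29251828-29313080, plus strand) encodes the kinase used by receptors with the common beta chain, such as those for IL-3, IL-5 and GM-CSF. Its levels were 203 and 179 CPM in the controls, and 410.5 and 229 CPM in FK866 replicates 1 and 2. Both treated libraries were above both controls, but most of the distance came from FK866 replicate 1. The log2 fold change of 0.75 ± 0.24 (SE) had the largest size among the 9 members and did not pass (edgeR adjusted p = 0.0755). It was 0.17 without FK866 replicate 1 and 1.13 without FK866 replicate 2. Leaving out control replicate 1 or 2 gave 0.74 and 0.65. DESeq2 on all libraries called it (0.74, DESeq2 adjusted p = 0.0154).

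Jak1 (ENSMUSG00000028530, chr4:101152367-101265282, minus strand) encodes the kinase that pairs with JAK3 on the receptors for IL-2 and IL-7 and also serves interferon and IL-6 family receptors. It was measured at 649.9 and 586 CPM in the controls and at 761 and 679.5 CPM with FK866, so the groups did not overlap. The log2 fold change of 0.22 ± 0.13 (SE) did not pass (edgeR adjusted p = 0.297). Its 95% interval ran from -0.064 to 0.51. Once the trend of fold change with transcript length and GC content was taken out, the value was 0.059, and it was 0.041 without FK866 replicate 1.

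The starts of Jak2 and Jak3, the members with the highest and the only negative log2 fold change, differ in base composition, and their upstream sequences are printed for that reason (RefSeq, GRCm38.p6, 5′ to 3′ on the gene's strand, with every CG in capitals). For Jak3 the last 87 of the 250 bases before the RefSeq start are exon bases in GENCODE and are left out.
Jak2 chr19:29251553-29251802, plus strand: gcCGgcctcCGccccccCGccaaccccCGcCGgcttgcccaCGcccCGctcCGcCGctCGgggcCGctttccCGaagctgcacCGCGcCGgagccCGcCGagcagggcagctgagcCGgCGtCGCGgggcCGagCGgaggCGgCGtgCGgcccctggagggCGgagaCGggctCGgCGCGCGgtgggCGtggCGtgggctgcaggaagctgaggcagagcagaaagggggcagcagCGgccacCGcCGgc
Jak3 chr8:71676133-71676295, plus strand: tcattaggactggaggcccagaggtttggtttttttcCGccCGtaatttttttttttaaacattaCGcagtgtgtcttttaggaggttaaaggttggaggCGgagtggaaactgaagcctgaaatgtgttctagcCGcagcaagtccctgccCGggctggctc
The Jak2 stretch holds 37 CG pairs in 250 bases and is 80.8% G and C. The Jak3 stretch holds 6 in 163 bases and is 48.5% G and C. The whole 250-base window of Jak3 is 52.4% G and C with 8 CG pairs. The pair was chosen by fold change, and a high G and C content is not particular to Jak2. Of the 2 whole windows of Stat5b, 1 is 82.0% G and C with 40 CG pairs, though 143 of its 250 bases are exon bases. The median over such windows of all genes was 52.4% G and C, as in the whole window of Jak3.

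Since CPM does not account for gene length, levels of different genes were compared as TPM, the count per exon length scaled to a sum of 1000000 in each library. In the controls Jak1 was the most abundant member, with 217 ± 15.9 TPM, followed by Stat6 with 146 ± 47.0, Jak3 with 104 ± 19.4, Jak2 with 96.0 ± 8.55 and Stat3 with 91.1 ± 1.86 TPM. The libraries of neighbours in this order overlapped from Stat6 down to Stat3, so the order within each pair of neighbours is not set beyond the spread. Both control libraries of Stat6 (179 and 112 TPM) lay above those of Jak2 (102 and 89.9) and of Stat3 (89.7 and 92.4). Stat5b (68.0 ± 13.1 TPM), Stat5a (29.1 ± 2.21), Stat4 (26.9 ± 0.774) and Stat2 (10.5 ± 0.411) followed without overlap. With FK866, Jak1 (266 ± 2.84 TPM) and Stat6 (183 ± 7.63) came first by their means, and the libraries of Stat6 and Jak2 overlapped. Jak3 (70.1 ± 3.51) came after Jak2 (168 ± 56.6), Stat3 (116 ± 3.19) and Stat5b (103.0 ± 13.97). Stat5a (50.4 ± 6.02), Stat4 (42.9 ± 11.5) and Stat2 (15.6 ± 2.23) closed the order, and the libraries of Stat5a and Stat4 overlapped.

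The shares of Jak2 and Jak3 among the JAKs did not overlap between the groups. Jak3 held 26.2% and 23.3% of the summed JAK level per length in the controls, and 13.2% and 14.7% with FK866. The Jak2 share was 22.8% and 23.4% in the controls, and 37.9% and 27.8% with FK866. Jak1 held 50.9% and 53.3%, and 48.9% and 57.5%, so its libraries overlapped between the groups. The ratio of Jak3 to Jak2 was 1.15 and 0.999 in the controls and 0.350 and 0.530 in FK866 replicates 1 and 2. An exact two-sided permutation test of 2 libraries against 2 cannot give a p below 0.333, so these ratios are descriptions. Among the STATs, Stat6 held 34.2% to 43.2% of the summed level and Stat3 21.3% to 28.1%, with overlapping groups. Stat5a held 7.41% and 8.40% in the controls and 10.2% and 9.48% with FK866. The Stat5b share was 18.6% and 17.9% in the controls and 21.1% and 19.1% with FK866, so these genes were the STATs whose shares were separate between the groups.

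**Figure D2:**
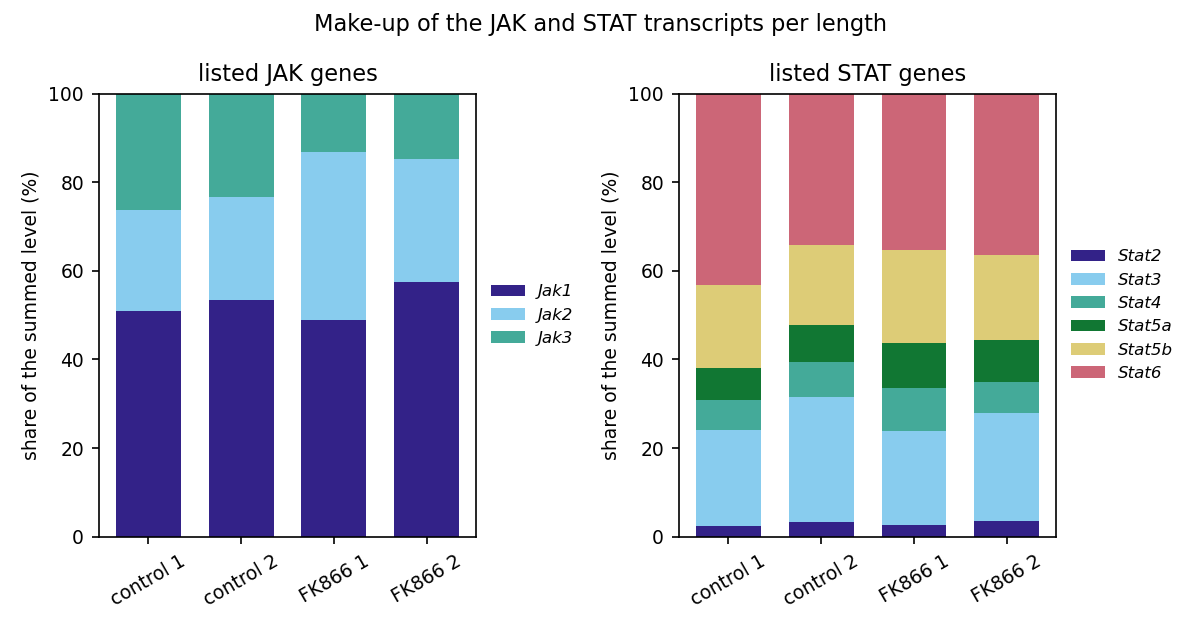
Share of each gene in the summed level per length (TPM) of the 3 listed JAK genes (left) and the 6 listed STAT genes (right), 1 bar per library, in percent. The Jak3 share is 23.3% or more in the controls and 14.7% or less with FK866, and among the STATs the shares of Stat5a and Stat5b are separate between the groups.

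Stat5a and Stat5b encode the STATs that IL-2 and IL-7 activate. They lie back to back on chromosome 11, Stat5b on the minus strand at chr11:100780731-100850724 (ENSMUSG00000020919) and Stat5a on the plus strand at chr11:100859351-100885169 (ENSMUSG00000004043), and the end of Stat5a overlaps that of Stat3 (ENSMUSG00000004040) by 72 exon bases on the other strand. Their longest annotated coding sequences, of 2394 bases in Stat5a and 2361 in Stat5b, are 90.8% identical over 2293 aligned bases, so a read can fit both genes. The sequences below show where reads can and cannot be assigned (GENCODE M21 transcripts, 5′ to 3′, in lower case, with the stop codon in capitals). Bases 571 to 894 of both coding sequences are the same, and the first 120 of these 324 bases are given. The last 90 bases of each longest coding sequence follow, and they share no run of 50 bases with the other coding sequence. Only these coding sequences were compared here. Other transcripts of a gene may end in another frame, so the stop codon in capitals is that of the longest coding sequence. The shared stretch lies within chr11:100874023-100874983 in Stat5a and chr11:100797741-100798701 in Stat5b.
Stat5a and Stat5b, coding bases 571 to 690: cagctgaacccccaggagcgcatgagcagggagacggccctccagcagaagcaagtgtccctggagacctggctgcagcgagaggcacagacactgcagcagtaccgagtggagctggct
Stat5a chr11:100883971-100884060, plus strand, coding bases 2305 to 2394: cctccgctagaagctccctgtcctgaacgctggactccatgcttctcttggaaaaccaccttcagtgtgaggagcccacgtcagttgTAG
Stat5b chr11:100783096-100783185, minus strand, coding bases 2272 to 2361: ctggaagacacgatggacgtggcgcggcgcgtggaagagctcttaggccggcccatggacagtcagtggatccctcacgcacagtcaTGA
Over whole transcripts, 8.21% of the runs of 50 bases in Stat5a also occur in Stat5b, and 11.0% of those in Stat5b occur in Stat5a. For runs of 100 bases the shares are 3.44% and 4.79%. The handling of reads that fit both genes was not given in the sources used here, so the split between them is uncertain to that extent.

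Stat5a stood at 86.4 and 77.6 CPM in the controls, and at 153 and 117 CPM in FK866 replicates 1 and 2. Both treated libraries were above both controls. The rise from 82.0 ± 6.21 to 135 ± 25.4 CPM was a log2 fold change of 0.72 ± 0.16 (SE), or 1.65-fold, with an edgeR adjusted p of 0.0229. Without FK866 replicate 1 it was 0.42 and was not called (edgeR adjusted p = 0.269), and across the other libraries left out it lay between 0.64 and 0.92.

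Stat5b had 169 and 129 CPM in the controls, and 246 and 184 CPM with FK866. The groups did not overlap, though control replicate 1 and FK866 replicate 2 were close. Its log2 fold change of 0.53 ± 0.19 (SE) did not pass (edgeR adjusted p = 0.0967). It was called when scaled to library totals (0.58, edgeR adjusted p = 0.0401) or the upper quartile (0.56, edgeR adjusted p = 0.0448). The value was 0.64 without control replicate 1 and 0.34 without control replicate 2. It was 0.21 without FK866 replicate 1 and 0.74 without FK866 replicate 2. With the counts of both genes summed, the value was 0.60 ± 0.17 (SE, edgeR adjusted p = 0.0518). Stat5a and Stat5b were in a ratio of 0.397 and 0.469 per length in the controls and of 0.485 and 0.496 with FK866.

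Stat3, the effector of IL-6 family cytokines, stood at 338 and 347 CPM in the controls and at 426 and 402 CPM with FK866. The libraries of a group were close, with an SD of 6.998 CPM in the controls and 17.2 CPM with FK866. The groups were separate, and the log2 fold change of 0.27 ± 0.12 (SE) did not pass (edgeR adjusted p = 0.18). Its value was 0.052 without the trend in length and GC content, 0.15 without control replicate 1 and 0.13 without FK866 replicate 1.

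Stat6, which carries the signal of IL-4 and IL-13, was the only member whose groups overlapped. Its levels were 311 and 195 CPM in the controls, and 326 and 278 CPM with FK866, so control replicate 1 lay between the treated libraries. The log2 fold change of 0.25 ± 0.21 (SE) did not pass (edgeR adjusted p = 0.484). Its sign rested on control replicate 2, since it was -0.044 without that library and 0.53 without control replicate 1. It was also smaller, at 0.040, without FK866 replicate 1. Stat6 (ENSMUSG00000002147, chr10:127642986-127660957, plus strand) overlaps Nab2 on the other strand by 40 exon bases.

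Stat4 (ENSMUSG00000062939, chr1:51987148-52107189, plus strand), the STAT of the IL-12 receptor, is known for its part in type 1 responses. It stood at 41.9 and 40.3 CPM in the controls, and at 77.7 and 48.0 CPM in FK866 replicates 1 and 2. As for Jak2, both treated libraries were above the controls and FK866 replicate 1 was far above replicate 2. The log2 fold change of 0.61 ± 0.22 (SE) did not pass (edgeR adjusted p = 0.106). It was 0.13 without FK866 replicate 1 and 0.94 without FK866 replicate 2. Leaving out control replicate 1 or 2 gave 0.54 and 0.58. Of its exon bases, 26.7% also belong to the noncoding gene Gm28177, which had 2 to 14 counts per library.

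Stat2 (ENSMUSG00000040033, chr10:128270559-128292849, plus strand) forms the interferon-activated complex with IRF9. It was the least abundant member, at 23.9 and 25.3 CPM in the controls and 32.6 and 36.3 CPM with FK866. The groups did not overlap, and the log2 fold change of 0.48 ± 0.17 (SE) did not pass (edgeR adjusted p = 0.0997). With any 1 library left out it lay between 0.35 and 0.53.

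**Figure D3:**
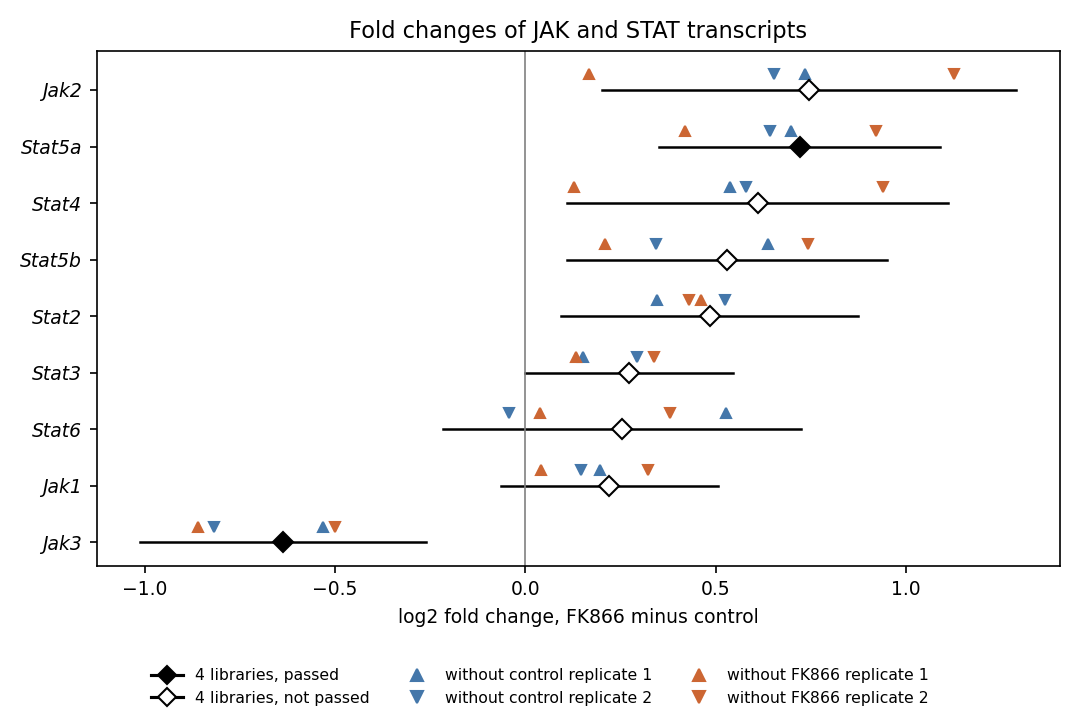
Log2 fold change of each member, FK866 minus control, from the 4 libraries (diamond, filled where the adjusted p was under 0.05) with its 95% interval, and with 1 library left out (triangles, blue for a control library and orange for an FK866 library). Jak3 is negative and Stat5a positive throughout, and for Jak2 and Stat4 the value falls to 0.17 and 0.13 without FK866 replicate 1.

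For each member that was called, the tested genes with the most similar course over the 4 libraries were found by the Euclidean distance between centred log2 CPM values, among genes of similar abundance. For Stat5a these were Gbp4, an interferon-inducible GTPase gene (distance 0.0562), and the receptor gene Notch1 (0.0727), among 3213 candidates. Gbp4 stood at 145 and 125 CPM in the controls and at 249 and 196 CPM with FK866. For Jak3 they were Ehbp1l1 (0.0488) and Pik3cd, which encodes a catalytic subunit of phosphoinositide 3-kinase (0.0645), among 2111 candidates. Pik3cd stood at 308 and 233 CPM in the controls and at 199 and 161 CPM with FK866. These genes were chosen by closeness over the same 4 libraries, so their likeness to the members follows from the choice. It includes the replicates, with FK866 replicate 1 above FK866 replicate 2 and control replicate 1 above control replicate 2.

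STATs bind the motif TTCNNNGAA, and STAT6 also TTC and GAA with 4 bases between them. The STAT2 and IRF9 complex binds elements with 2 copies of TTTC that lie 2 bases apart. These letters were searched on both strands in the 250 bases before the 12 RefSeq starts of the 9 members. TTCNNNGAA was in 0 of the 12 windows, against 7.02% of 32851 windows of all genes. The form with 4 bases between was in the Stat2 window (5.85% of all windows), and the paired TTTC in the Stat2 window and in 1 of 2 Stat4 windows (2.98% of all windows). GTAAACA (a FOXO motif), TGATGNAA (an ATF4 motif) and CACGTG (an E-box) were in 0 of the 12, against 3.17%, 3.45% and 6.02% of all windows. The windows that hold the letters of a STAT motif or of the paired TTTC are printed below, with the matches in capitals.
Stat2 chr10:128270248-128270497, plus strand: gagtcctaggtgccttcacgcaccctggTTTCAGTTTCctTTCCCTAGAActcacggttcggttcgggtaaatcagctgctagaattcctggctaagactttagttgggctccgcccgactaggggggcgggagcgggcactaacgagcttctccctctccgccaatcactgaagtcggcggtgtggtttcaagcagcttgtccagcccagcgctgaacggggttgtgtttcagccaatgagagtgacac
Stat4 chr1:52007990-52008239, plus strand: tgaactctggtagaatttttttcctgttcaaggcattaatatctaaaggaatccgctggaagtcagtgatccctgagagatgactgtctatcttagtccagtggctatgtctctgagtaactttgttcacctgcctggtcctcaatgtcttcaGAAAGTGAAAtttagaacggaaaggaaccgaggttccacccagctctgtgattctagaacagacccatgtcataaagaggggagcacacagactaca
A match is a run of letters and not a bound site.

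Upstream of the kinases are the cytokine genes whose products act through JAKs. The counts of this list and of those below stand beside 5.31% called higher and 7.89% called lower over all genes tested. Calls over all genes also moved as libraries were left out, so a list count that moves then is not particular to the list. Of 24 listed ligand genes 14 had enough counts, and of these 4 fell and 0 rose by edgeR, with 5 lower and 1 higher at an unadjusted p under 0.05, and DESeq2 also called 0 higher. The list median was -0.51, also with Tslp, which had no count in the controls, set to its bound. Lif, whose product acts through STAT3, fell from 110 ± 21.4 to 19.4 ± 3.69 CPM (log2 -2.49, edgeR adjusted p = 0.000722), and Osm, of the same family, fell from 259 ± 35.5 to 70.5 ± 12.3 CPM (-1.88). The type 2 cytokine genes Il13 (-1.49) and Il4 (-0.78) fell as well. The Il4 call was lost when control replicate 2 (-0.64) or FK866 replicate 2 (-0.70) was left out, and without the trend in length and GC content (-0.41, edgeR adjusted p = 0.184). Without FK866 replicate 1, 10 of the ligand genes were called lower, and without control replicate 2 the number was 8. Without control replicate 1, 1 was called higher.

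The receptor chains for IL-2 and IL-7 did not pass. Il2ra stood at 835 and 719 CPM in the controls and at 643 and 456 CPM with FK866 (log2 -0.50, edgeR adjusted p = 0.0936). It was called lower by DESeq2 (-0.51) and with the stricter filter (-0.42). The value was -0.49 without control replicate 1 and -0.61 without control replicate 2. It was -0.86 without FK866 replicate 1 and -0.25 without FK866 replicate 2. Il2rb had a log2 fold change of -0.093 (edgeR adjusted p = 0.737) and Il2rg, the common gamma chain that binds JAK3, of 0.046 (0.864), with overlapping groups for both. The sign of Il2rb turned without FK866 replicate 2 (0.032), and that of Il2rg without control replicate 2 (-0.028) or FK866 replicate 1 (-0.098). Il7r was at 147 and 275 CPM in the controls and at 311 and 346 CPM with FK866 (0.64, edgeR adjusted p = 0.132). Its value was 0.16 without control replicate 1, 1.16 without control replicate 2 and 0.62 without FK866 replicate 1. DESeq2 on all libraries called Il7r higher (0.63, DESeq2 adjusted p = 0.0346).

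Among the 29 of 32 listed receptor chains that were tested, 5 rose and 1 fell, with a median log2 fold change of 0.19. Csf2rb, the common beta chain, which binds JAK2, rose from 6.02 ± 2.62 to 30.8 ± 2.53 CPM (log2 2.35, edgeR adjusted p = 0.00308), and Csf2rb2, its near-identical mouse copy, from 2.73 ± 1.12 to 15.7 ± 5.22 CPM (2.51). Reads of these copies may be split between them. These genes are also abundant in macrophages, and the macrophage and dendritic cell markers summed to 14.7 and 13.2 CPM with FK866 against 5.23 and 6.63 CPM in the controls. Of these 8 markers Cd68 was the most abundant, 1 was called higher, and 4 were under 1 CPM in every library. The part of macrophages in the rise of Csf2rb and Csf2rb2 was not tested. The interferon receptor genes Ifngr1 (0.93, edgeR adjusted p = 0.00822) and Ifnar1 (0.68, 0.0212) rose too, but the Ifnar1 call was lost without FK866 replicate 1 (0.45, 0.241) and with no filter (0.64, 0.0501). The remaining calls fall outside the rule for named genes and were chosen after their values were seen. Il12rb2, which pairs with STAT4, rose from 0.205 ± 0.0567 to 1.58 ± 0.972 CPM, a call that was lost without control replicate 1 (2.58) or FK866 replicate 2 (2.12). Opposite-strand exons cover 40.0% of the exon bases of Il12rb2, and reads of the 2 strands cannot be told apart here. Il9r fell (-0.60), and that call was lost without FK866 replicate 2 (-0.51). With 1 library left out, the number of receptor chains called lower was 0 without FK866 replicate 2, 3 without FK866 replicate 1, 4 without control replicate 1 and 5 without control replicate 2.

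Of 15 adaptors and nuclear partners of the STATs, 4 rose and 2 fell, with a median log2 fold change of 0.21. Stam, an adaptor that binds JAKs, rose from 29.7 ± 0.927 to 71.4 ± 0.194 CPM (log2 1.26, edgeR adjusted p = 0.00213). Kpna1, an importin that carries proteins into the nucleus, rose by 0.61, and the related importin Kpna2 fell by 0.72. Nmi, which binds STATs, fell by 0.88. Stam2 (0.61) and Crebbp (0.49) rose too, outside the rule for named genes. The calls of Kpna1 (0.48, edgeR adjusted p = 0.15), Stam2 (0.45) and Crebbp (0.35) were lost without FK866 replicate 1. With no filter all 3 were lost as well (0.57, 0.57 and 0.45). Those of Nmi (-0.74, edgeR adjusted p = 0.059) and Kpna2 (-0.51, 0.17) were lost without FK866 replicate 2, and that of Kpna2 also without the trend in length and GC content (-0.56, 0.0682). Crebbp was called neither then (0.13), nor without control replicate 1 (0.39) or FK866 replicate 2 (0.55).

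The genes that restrain JAKs and STATs moved in both directions. Of 22 tested, 4 fell and 1 rose, with a median log2 fold change of 0.10. The falls were in Socs1 (-1.87, edgeR adjusted p = 0.00153) and Cish (-1.001, 0.00889), feedback inhibitors that STAT5 induces, in the phosphatase gene Ptpn6 (-0.70) and in Socs3 (-1.10), a gene outside the rule for named genes. Socs1 went from 303 and 239 CPM in the controls to 87.2 and 60.8 CPM in FK866 replicates 1 and 2, and Cish from 264 and 207 to 133 and 103 CPM. For both genes the FK866 libraries lay below the controls. Cblb, which encodes a ubiquitin ligase, rose by 0.92. Without control replicate 1, 3 of the list were called higher. An opposite-strand gene covers 11.5% of the exon bases of Cish, and its reads cannot be told apart here.

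Downstream of the STATs, 6 of 15 tested STAT5 targets fell and 1 rose, with a median log2 fold change of -0.46. Pim2, a survival kinase gene, fell from 1243 ± 146 to 698 ± 43.7 CPM (-0.83, edgeR adjusted p = 0.00614), the cyclin gene Ccnd2 from 751 ± 159 to 336 ± 75.2 CPM (-1.16), and Prdm1, which encodes a transcriptional repressor, from 61.0 ± 12.9 to 27.7 ± 2.84 CPM (-1.14). Bcl6, a gene that STAT5 is known to repress, rose from 2.29 ± 1.32 to 23.6 ± 3.28 CPM (3.38, edgeR adjusted p = 0.00204). Outside the rule for named genes, the survival genes Mcl1 (-0.77) and Bcl2l1 (-1.13) and the cyclin gene Ccnd3 (-0.75) fell. The calls of Mcl1 and Ccnd3 were lost without FK866 replicate 2 (-0.60 and -0.64). Of the list, 2 genes were called higher without control replicate 1 or FK866 replicate 2.

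Among 13 tested targets of STAT3, STAT4 and STAT6, 4 fell and 0 rose by edgeR and by DESeq2, with 6 lower and 2 higher at an unadjusted p under 0.05 and a median log2 fold change of -0.33. They were Maf, a transcription factor gene that fell from 71.2 ± 15.8 to 23.0 ± 0.351 CPM (-1.63, edgeR adjusted p = 0.00213), Bcl3 (-1.04), Arg1 (-1.33) and Batf (-0.88). Without control replicate 2 or without FK866 replicate 1 the number called lower was 7, and 1 gene was called higher without control replicate 2 and without FK866 replicate 2.

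Among 27 tested interferon-induced genes that the STAT2 and IRF9 complex controls, 7 fell and 0 rose by edgeR, while DESeq2 called 7 lower and 1 higher. At an unadjusted p under 0.05, 12 were lower and 3 higher, and the list median was -0.56. Oas3 fell from 13.6 ± 0.529 to 3.10 ± 0.352 CPM (-2.13, edgeR adjusted p = 0.00271), Ifi35 from 67.1 ± 4.03 to 29.8 ± 1.42 CPM (-1.17), Xaf1 from 16.0 ± 2.44 to 5.66 ± 0.275 CPM (-1.50) and Zbp1 from 16.3 ± 1.70 to 5.68 ± 1.67 CPM (-1.53). Outside the rule for named genes, Ddx58 (-0.78), Oas1a (-1.47) and Irf7 (-1.13) fell, and the Ddx58 call was lost without FK866 replicate 2 (-0.70) and the Irf7 call without FK866 replicate 1 (-1.03) or with library totals (-1.07). An opposite-strand gene covers 16.8% of the exon bases of Ifi35. Stat2 and Irf9 themselves had log2 fold changes of 0.48 and -0.11 that did not pass. Without control replicate 1, 11 of the list were called lower, and 2 were called higher without control replicate 2 and without FK866 replicate 2.

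**Figure D4:**
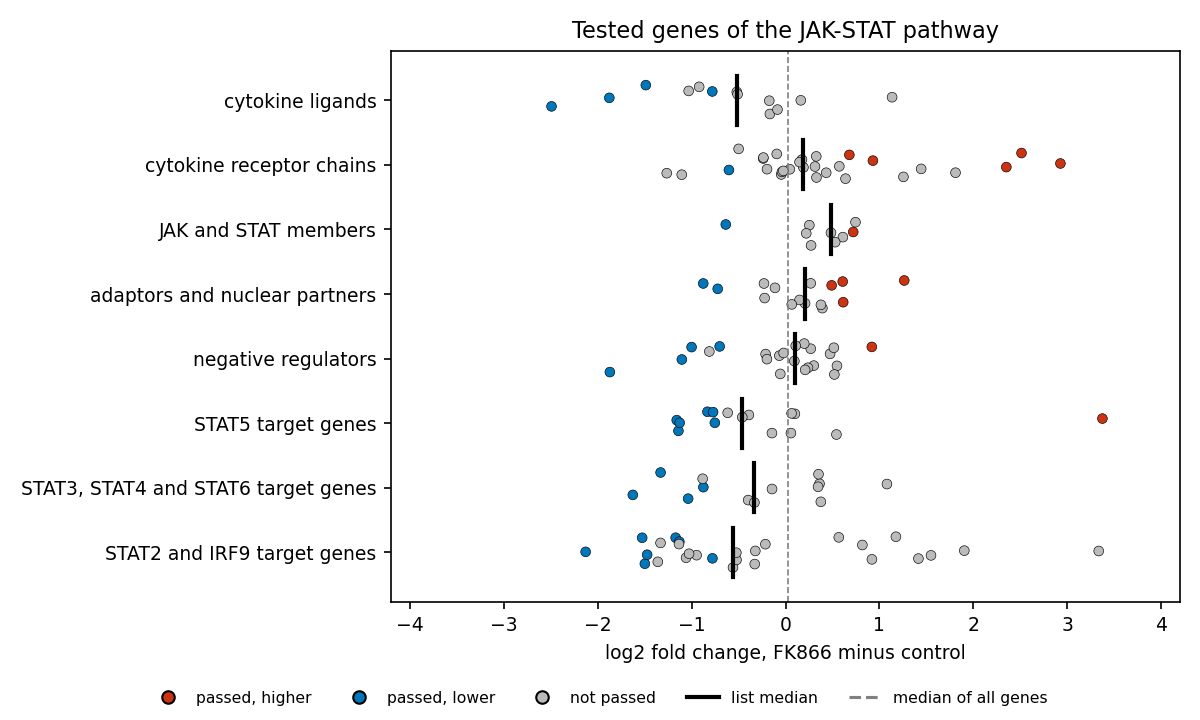
Log2 fold change, FK866 minus control, of each tested gene of the JAK-STAT pathway by role. Each point is 1 gene, red or blue where it passed the test, black lines are list medians and the dashed line is the median of all genes tested. Genes with no count in 1 of the groups are not drawn. The medians of the ligand and target lists lie between -0.56 and -0.33 and that of the JAK and STAT members at 0.48.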

How the data were processed

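The authors deposited raw read counts for Ensembl gene IDs in 4 libraries, and the unit was read from the whole numbers. Per the labels' protocols, RNA was taken with TRIzol and libraries were made with the SMART-Seq HT and Nextera XT kits, which do not mark the strand. Per the submitters' processing notes, cutadapt 1.9, HISAT2 2.2.1 and build mm10 were used. The counting program, its annotation and its handling of reads that fit several genes were not given in the sources used here. Of 55487 IDs, 55227 had a symbol in GENCODE M21 (GRCm38), which also gave positions and lengths.

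Counts were filtered with filterByExpr (minimum count 10, minimum total 15), scaled by TMM and compared in edgeR 4.0.16 (R 4.3.3) by its two-sided quasi-likelihood F test, with treatment as the only term. SEs were taken as |log2 fold change| / sqrt(F), and 95% intervals use 8.72 degrees of freedom. CPM are counts over the TMM-scaled library total, and TPM are counts per exon length scaled to 1000000 in each library. DESeq2 1.42.0, other scalings and filters, a replicate block, each library left out and an offset for transcript length and GC content were alternatives. Within a group the 2 libraries differed beyond sampling noise (chi-square per degree of freedom 35.8 in the controls and 19.0 with FK866), and each counted as 1 sample.

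The members and the 7 pathway lists were chosen with earlier results of these data known. Named genes were all members, Il2ra, Il2rb, Il2rg, Il7r, and up to 4 called genes per list with the smallest adjusted p. The nearest genes to a called member were the closest 2 with a mean log2 CPM within 1 of it. Exon overlap with other genes was 30.5% for Il2rg (same strand) and between 5.34% and 7.86% for Maf, Bcl3, Ptpn6 and Ccnd2 (other strand). Some genes of the family are not reported here. The edgeR script was tested on simulated data.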

Additional observations from a re-analysis of the deposited data

How the results depend on the processing

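With the replicate number as a block, 7 members were called higher and 1 lower, and over all genes 2197 higher and 3059 lower. Same-numbered libraries deviated together (correlation of 0.37 across genes), but 2 pairs do not show that the numbers pair the samples. With the length and GC trend removed as well as the replicate block, 4 members were called higher, and over all genes 1900 higher and 2528 lower. The block also called Il7r higher (0.71) and Il2ra lower (-0.52), and 2 of the STAT2 and IRF9 targets and 3 of the STAT3, STAT4 and STAT6 targets higher. The block with the trend removed called Il2rg higher (0.26, edgeR adjusted p = 0.0203). The stricter filter (10 CPM in 2 libraries) left 8487 genes and called 7 members higher and 1659 of all genes higher. Upper quartile scaling and library totals each called 3 members higher, no filter and DESeq2 each 2, and the size factors of DESeq2 in edgeR called 0 lower, with 7 members at an unadjusted p under 0.05 and 1 called lower by DESeq2 itself. As each library was left out, members called higher ranged from 0 (without FK866 replicate 1, with 1 member at an unadjusted p under 0.05) to 5 and lower from 0 to 1, and calls over all genes from 661 to 1457 higher and from 828 to 2462 lower. Stat6 reversed to -0.044 without control replicate 2, and its values with 1 library left out ran up to 0.53. With longest transcripts as lengths, the control shares of Stat3, Stat5a and Stat5b were 29.8%, 10.8% and 14.8% in place of 24.9%, 7.90% and 18.3%, and Stat3 came before Jak3 in the control order as well. The signs of the 8 members other than Stat6 were the same in every setting run. The cause of these changes was not tested, and 2 libraries a group limit all of them.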
